A study of Mus musculus with 8 samples.

Results

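The genes described here encode the proteins of the mitochondrial ribosome, measured in mouse gastric adenocarcinoma and in normal gastric mucosa. Members were the genes with 1 symbol that starts with Mrpl or Mrps followed by a digit in the annotated array table. This gave 75 of the 21626 genes tested, 46 named for the large subunit and 29 for the small subunit. Where a gene had several probe sets, the one with the highest mean over the 8 arrays was used. No measured difference between the groups entered that choice of probe set. The gene family itself was chosen with earlier results of these data known. Total RNA of 4 adenocarcinomas and 4 normal mucosa samples was hybridised to 1 array each. The series' design text says that mice carrying a transgene were watched for spontaneous gastric cancer and that the cancers were fresh frozen primary samples. The labels used here give no transgene, strain, age, sex or treatment for either group. They also do not say whether the samples of a group came from separate animals, so the p-values rest on a spread between samples that could be technical only.

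The mitochondrial ribosome translates the few messenger RNAs encoded by mitochondrial DNA, which in mammals all specify subunits of the respiratory chain and the ATP synthase. Its proteins are encoded in the nucleus, made on cytosolic ribosomes and imported, and they descend in part from bacterial ribosomal proteins, with others found only in mitochondria. Each subunit is built on a ribosomal RNA made inside the organelle, so nuclear and mitochondrial products must meet in 1 particle. Normal gastric mucosa is rich in mitochondria because the acid-secreting parietal cells are packed with them.

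Values are log2 signals made by the robust multi-array average (RMA) and deposited to 1 decimal. A change is the mean of the 4 adenocarcinomas minus the mean of the 4 normal samples on this scale, given with its standard error (SE). A gene is called lower or higher where limma's p-value, adjusted over all 21626 genes by Benjamini-Hochberg, was under 0.05. All 75 members were brighter than the median background probe on every array, the narrowest margin being 1.2 log2 units for Mrpl33.

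Several facts of the whole series touch every value below. The median background probe read 6.0 to 6.2 in the adenocarcinomas and 6.2 to 6.4 in the normal samples, and the median change over all genes was -0.10. All 6 parietal cell markers and all 5 chief cell markers were called lower, with median changes of -4.94 and -4.28, and 4 of 5 pit cell markers were called lower. All 6 fibroblast, 4 endothelial and 6 macrophage markers were called higher, with medians of 3.09, 3.21 and 3.23, as were all 5 dividing cell markers, with a median of 1.30. All 5 smooth muscle markers were also called higher, with a median of 2.85. The other lists were mixed: 2 of 4 epithelial and 1 of 4 B cell markers were called higher and 0 lower. Of 4 T cell markers, 1 was called lower and 0 higher. In bulk tissue, fewer cells of a type and less RNA per cell cannot be told apart, and the part of these cell types in the members' values was not tested. Xist, the RNA of the inactive X chromosome, read 6.40 ± 0.183 (SD, n = 4) in the adenocarcinomas and 12.30 ± 0.483 in the normal samples, and the Y-linked Eif2s3y and Ddx3y were the other way round. Sex and tissue therefore cannot be told apart, and none of the members lies on X or Y.

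Mitochondrial ribosomal protein genes changed little as a group, and the called members went both ways. Of the 75 members, 11 were called lower and 8 higher, and the other 56 were not called. That is 25.3% of the members, beside 41.8% called among all genes. Members called lower made up 14.7% beside 23.6% of all genes, and members called higher 10.7% beside 18.2%. The median change over the members was -0.03, with a range from -0.85 to 0.85. None reached a 2-fold difference, which 9.78% of all genes did with a call. The groups did not overlap for 15 members (20%), beside 34.3% of all genes. An unadjusted limma p under 0.05 was reached by 26 of the 75 members, beside 52.3% of all genes (11305 of 21626).

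Both subunits held calls in each direction, and the difference between them was not tested. Of the 46 large subunit genes, 8 were called lower and 6 higher, with a median change of -0.04 and 10 genes whose groups did not overlap. Of the 29 small subunit genes, 3 were called lower and 2 higher, with a median of -0.03 and 5 genes whose groups did not overlap. The 45 members on a written list of proteins with a bacterial counterpart held 7 called lower and 6 called higher. The 30 members not on that list, Mrpl55 and Mrps36 among them, held 4 called lower and 2 called higher. Absence from the list does not show that a protein is found only in mitochondria.

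**Figure D1:**
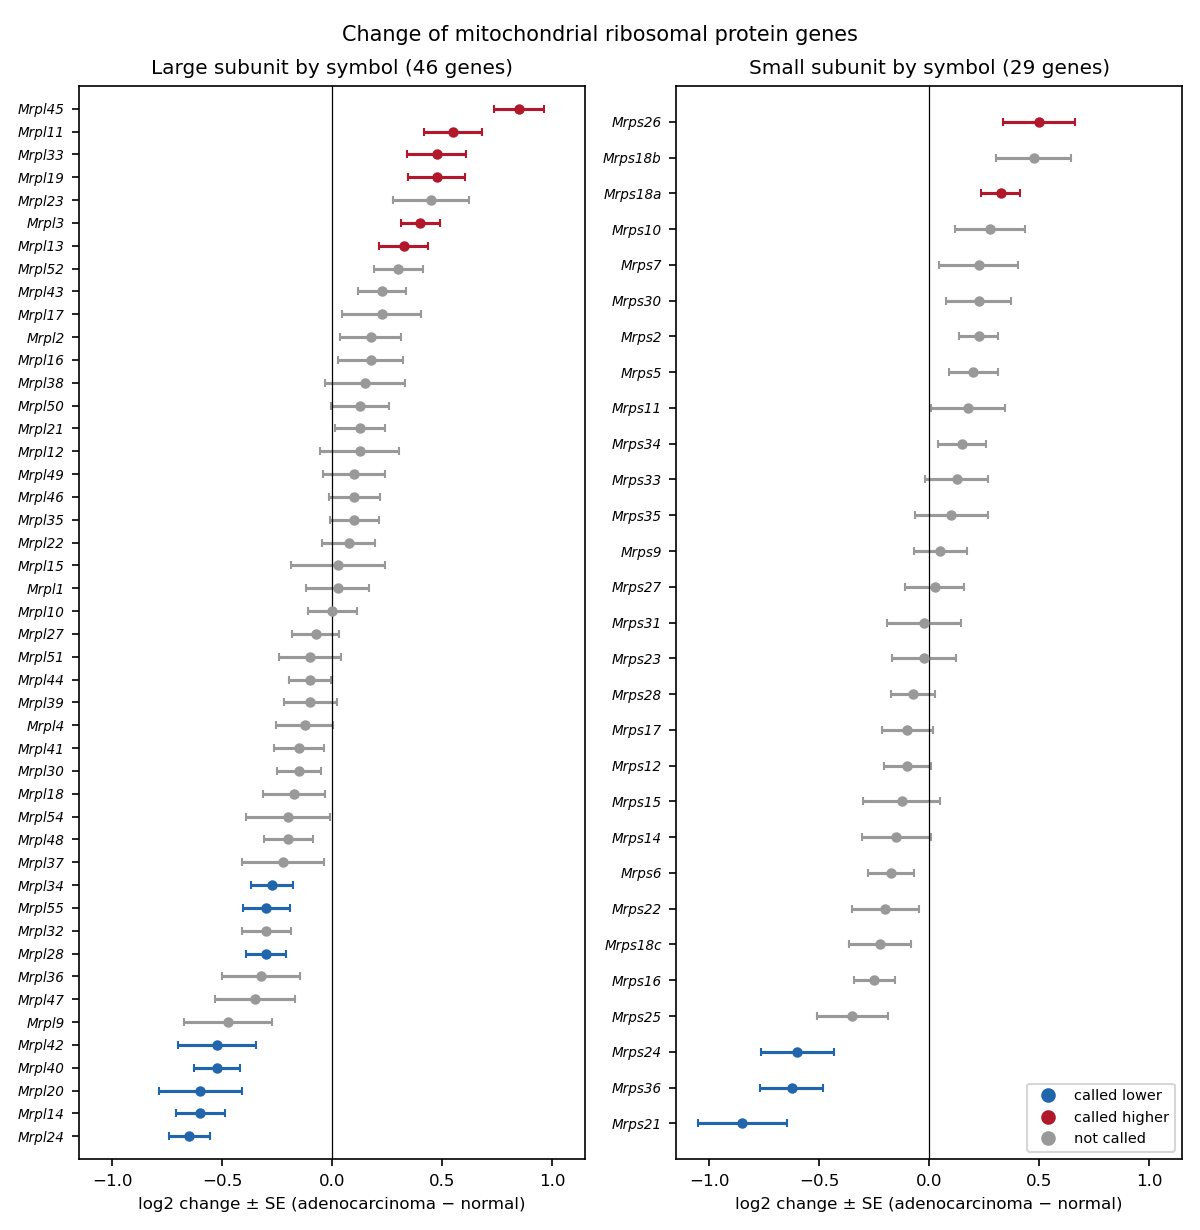
Log2 change (adenocarcinoma minus normal mucosa, 4 samples each) of every member, with its limma standard error as a bar, for the large subunit (left) and the small subunit (right). Blue points were called lower, red points higher and grey points were not called; the changes run from -0.85 for Mrps21 to 0.85 for Mrpl45 with most points grey.

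Among the large subunit genes, Mrpl24 had the lowest change. Its protein is the counterpart of a bacterial protein that starts assembly of the large subunit. Mrpl24 (probe set at chromosome 3, 87723466 to 87727589) read 10.1, 9.8, 9.9 and 9.9 in adenocarcinomas 1 to 4 and 10.5, 10.7, 10.5 and 10.6 in normal samples 1 to 4. Every adenocarcinoma lay below every normal sample. The change was -0.65 ± 0.0948 (SE) with a limma adjusted p of 0.000914.

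Mrpl14 encodes a protein at the face where the subunits meet, which in human cells also binds assembly factors. Mrpl14 (chromosome 17, 45823321 to 45835444) read 9.8, 9.8, 10 and 9.5 in the adenocarcinomas and 10.4, 10.4, 10.3 and 10.4 in the normal samples. The groups did not overlap and the normal samples were almost level. The change was -0.60 ± 0.111 (SE), limma adjusted p = 0.00328. Mrpl40, a protein with no bacterial counterpart, read 11.1, 11.5, 11.2 and 11.3 against 11.8, 11.9, 11.7 and 11.8. Its groups did not overlap either, and the change was -0.53 ± 0.104 (limma adjusted p = 0.00455).

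Mrpl20, the counterpart of a bacterial protein needed early in assembly, read 8.7, 8.7, 8.9 and 9.2 in the adenocarcinomas and 9.2, 10, 9.4 and 9.3 in the normal samples. Here adenocarcinoma 4 reached the lowest normal sample, and the change was -0.60 ± 0.188 (limma adjusted p = 0.0321). Mrpl42, known only from mitochondria, read 8.5, 8.7, 8.6 and 9.2 against 9.2, 9.6, 9.0 and 9.3. Adenocarcinoma 4 again lay inside the normal range, and the change was -0.53 ± 0.176 (limma adjusted p = 0.0403). Mrpl9, whose change of -0.48 came next, was not called (limma adjusted p = 0.0831), and its adenocarcinoma 3 at 10.1 lay inside the normal range of 9.8 to 10.2. The remaining large subunit genes called lower were Mrpl28 and Mrpl55 at -0.30 and Mrpl34 at -0.28, with limma adjusted p of 0.0276, 0.0475 and 0.0453. These 3 are named because they complete the calls, after their values were seen.

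Mrpl45 had the highest change of all members. Its human protein sits at the exit of the tunnel through which the new chain leaves and ties the ribosome to the inner membrane. Mrpl45 (chromosome 11, 97177170 to 97191234) read 10, 10, 9.8 and 9.7 in the adenocarcinomas and 9.1, 9.2, 8.8 and 9.0 in the normal samples. The lowest adenocarcinoma was above the highest normal sample. The change was 0.85 ± 0.116 (SE), which is 1.80-fold, with a limma adjusted p of 0.000632.

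Mrpl11 encodes the counterpart of the bacterial stalk-base protein next to which elongation factors dock. It read 10.2, 10.3, 9.9 and 10.2 in the adenocarcinomas and 9.4, 9.9, 9.5 and 9.6 in the normal samples. Adenocarcinoma 3 and normal sample 2 met at 9.9, and the change was 0.55 ± 0.132 (limma adjusted p = 0.0113). Mrpl3, whose bacterial counterpart reaches towards the site of peptide bond formation, read 10.7, 10.8, 10.7 and 10.7 against 10.3, 10.5, 10.2 and 10.3. The adenocarcinomas were nearly equal and all above the normal samples, with a change of 0.40 ± 0.0888 (limma adjusted p = 0.00792).

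Mrpl19, counterpart of a bacterial protein at the subunit interface, read 10.3, 10.1, 9.9 and 10.3 against 9.8, 9.8, 9.4 and 9.7. Its groups did not overlap, and the change was 0.48 ± 0.130 (limma adjusted p = 0.0192). Mrpl33 read 8.6, 8.1, 8.3 and 8.4 against 7.6, 8.0, 8.0 and 7.9, also without overlap, for a change of 0.48 ± 0.134 (limma adjusted p = 0.0216). Mrpl13, counterpart of an early assembly protein in bacteria, read 9.9, 10.1, 9.9 and 9.9 against 9.5, 9.9, 9.6 and 9.5. Normal sample 2 equalled 3 of the adenocarcinomas, and the change was 0.33 ± 0.111 (limma adjusted p = 0.0432). Mrpl23 at 0.45 was not called (limma adjusted p = 0.0615), and its probe set is marked as able to cross-hybridise. Mrpl10, a stalk protein, stood at the other end with a change of 0.00.

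Among the small subunit genes, Mrps21 had the lowest change of all members. Mrps21 (chromosome 3, 95666575 to 95675422) read 10.7, 10.5, 11.5 and 11.0 in the adenocarcinomas and 11.8, 12, 11.7 and 11.6 in the normal samples. The groups did not overlap, but the adenocarcinomas spread over 1 log2 unit, with adenocarcinoma 3 just under the normal range. The change was -0.85 ± 0.202 (SE), a 1.80-fold difference (limma adjusted p = 0.0108). Mrps24, counterpart of a bacterial protein at the entry of the messenger RNA channel, read 9.9, 10.3, 10.4 and 10.8 against 11.0, 11.0, 10.9 and 10.9. All 4 adenocarcinomas were lower, adenocarcinoma 4 by little, and the change was -0.60 ± 0.167 (limma adjusted p = 0.0206).

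Mrps36 carries a small subunit symbol, but its protein was later placed in the 2-oxoglutarate dehydrogenase complex of the citric acid cycle. It read 7.8, 8.1, 7.6 and 8.1 in the adenocarcinomas and 8.4, 8.8, 8.5 and 8.4 in the normal samples. The groups did not overlap, and the change was -0.63 ± 0.144 (limma adjusted p = 0.00937). Its second probe set gave the same change, and both are marked as able to cross-hybridise. Mrps25 at -0.35, Mrps16 at -0.25 and Mrps18c at -0.23 came next and were not called (limma adjusted p of 0.109, 0.0570 and 0.218).

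Of the higher small subunit genes, Mrps26, known only from mitochondria, read 8.7, 9.2, 9.2 and 9.4 in the adenocarcinomas and 8.9, 8.6, 8.4 and 8.6 in the normal samples. Adenocarcinoma 1 lay inside the normal range, and the change was 0.50 ± 0.163 (limma adjusted p = 0.0365). Mrps18a is 1 of 3 mammalian relatives of a single bacterial protein, and its product lies in the large subunit. It read 10.8, 10.8, 10.9 and 10.6 against 10.5, 10.5, 10.4 and 10.4, without overlap, for a change of 0.33 ± 0.0896 (limma adjusted p = 0.0199). Its relative Mrps18b read 10.6, 10.5, 11.3 and 10.7 against 10.4, 10.4, 10.1 and 10.3. The groups did not overlap, yet the change of 0.48 ± 0.171 was not called (limma adjusted p = 0.0512), with adenocarcinoma 3 far above the others. The 3 relatives thus stood at 0.33, 0.48 and -0.23, and 1 of them passed the test.

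Mrps10, Mrps7 and Mrps30 had changes of 0.28, 0.23 and 0.23 and were not called. Mrps30, despite its symbol a large subunit protein, and Mrps10 each had a further probe set with the opposite sign, at -0.18 and -0.10. The Mrps10 probe set used here lies at chromosome 17, 65787044 to 65787983. The gene's promoter window is far from it, at 47368947 to 47369226 on GRCm38.p6. The value of 0.28 may therefore come from another locus, and the direction for Mrps10 is not settled. Mrps23 was among 3 small subunit genes whose change was 0.03 or less in size, at -0.03.

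**Figure D2:**
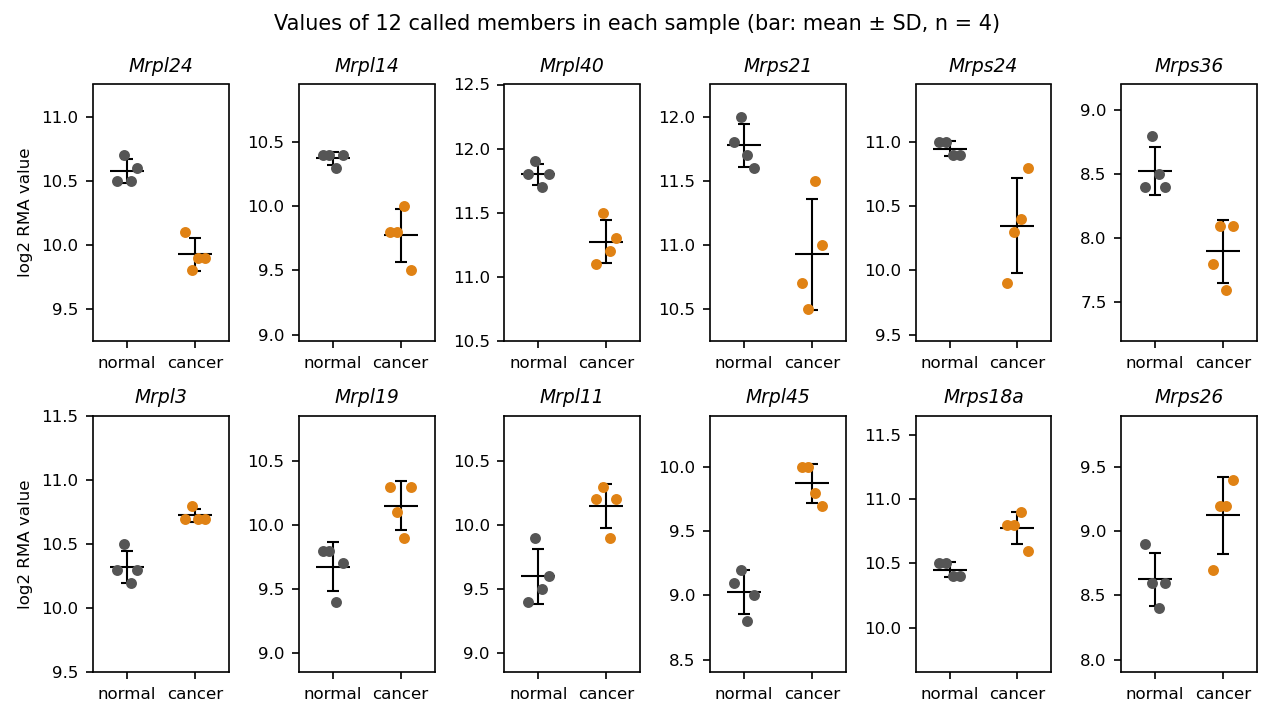
Log2 RMA values of 12 called members in the 4 normal mucosa samples (grey) and the 4 adenocarcinomas (orange, marked cancer), with the mean and SD as bars; each panel spans 2 log2 units. The top row holds members called lower and the bottom row members called higher, and in the panels of Mrpl11 and Mrps26 the groups touch or overlap. The 12 are a selection made without a set rule. Mrpl20, Mrpl42, Mrpl55 and Mrpl13, called although their groups touch or overlap, are not shown, nor are Mrpl28, Mrpl34 and Mrpl33, whose groups do not overlap.

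The adenocarcinomas differed more among themselves than the normal samples did. The SD was larger in the adenocarcinomas for 59 of the 75 members, and for 14615 of the 21626 genes overall. The median SD over the members was 0.222 in the adenocarcinomas and 0.141 in the normal samples. Averaged over the members, adenocarcinomas 1 to 4 read 9.76, 9.85, 9.75 and 9.92, and normal samples 1 to 4 read 9.81, 10, 9.76 and 9.81. Normal sample 2 was thus the highest of all and adenocarcinoma 4 the highest of its group. Adenocarcinoma 4 alone gave the highest adenocarcinoma value for 17 of the 46 large subunit genes and for 9 of the 29 small subunit genes. Normal sample 2 was also the highest sample for the respiratory chain and ATP synthase genes, with a mean of 11.59.

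**Figure D3:**
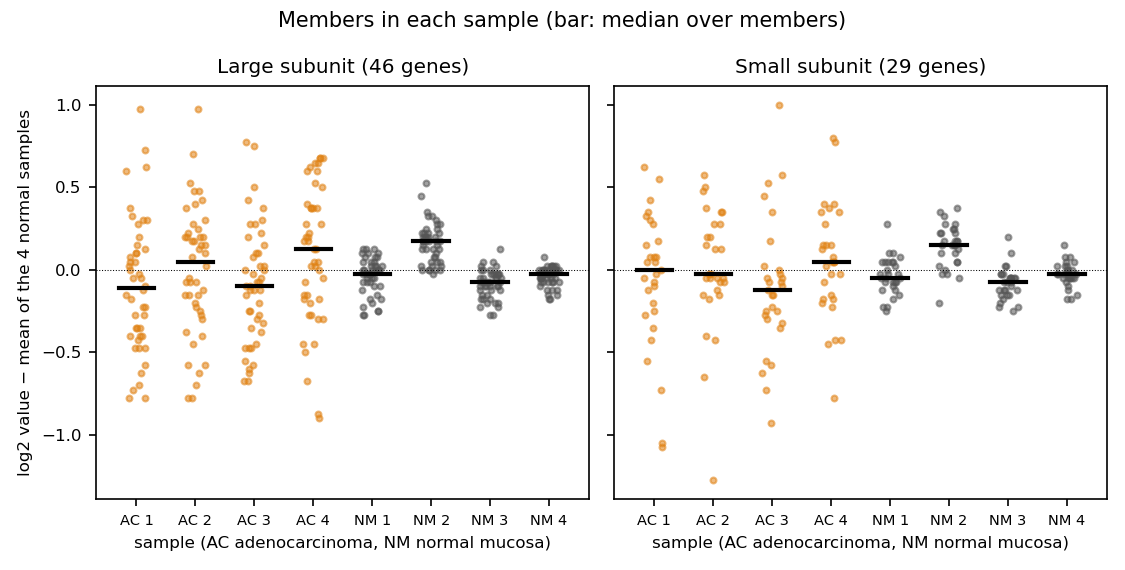
Each member's log2 value in each sample minus its mean over the 4 normal samples, for the 46 large subunit genes (left) and the 29 small subunit genes (right); AC marks adenocarcinoma, NM normal mucosa, and the bar is the median over members. The adenocarcinomas scatter more widely than the normal samples, their medians run from -0.13 to 0.13, and normal sample 2 lies above the other normal samples.

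The calls depend on single samples. Of the 19 called members, between 10 and 16 were still called the same way when any 1 sample was left out. The large subunit count of 8 called lower became 4 without adenocarcinoma 1, adenocarcinoma 2, normal sample 1 or normal sample 3, 5 without normal sample 2 and 3 without normal sample 4. The share of all genes called lower fell as well in most of these cases, from 23.6% to 19.4% and 15.6% without adenocarcinomas 1 and 2, and to 13.8%, 13.9% and 13.8% without normal samples 1, 3 and 4. Without normal sample 2 it was 25.2%. The small subunit count of 2 called higher became 1 without adenocarcinoma 3, adenocarcinoma 4 or normal sample 2, and 0 without normal sample 3 or 4. Among all genes the share called higher was 13.6% to 18.3% with single samples left out, beside 18.2%. Mrpl24, Mrpl14, Mrpl3, Mrpl11, Mrpl45 and Mrps21 were called under every other setting tried at the 0.05 threshold, and Mrpl40 and Mrps36 under every sample left out. The other 11 lost the call with at least 1 sample left out. Mrps24 lost it without normal sample 1, Mrpl19 without normal sample 3, Mrps18a without normal sample 3 or 4, and Mrpl33 without normal sample 1 or 4. Mrpl20 lost it without adenocarcinoma 1, 2 or 3 or normal sample 3 or 4, and Mrpl28 without adenocarcinoma 1 or 2 or normal sample 1, 3 or 4. Mrpl42 lost it without any sample but adenocarcinoma 4 and normal sample 3, Mrpl34 without any but adenocarcinomas 2 and 4, and Mrps26 without any but adenocarcinoma 1 and normal sample 1. Mrpl13 kept it only without normal sample 2, and Mrpl55 only without adenocarcinoma 3. Scaling matters as well, since the largest changes are under 1 log2 unit. With each array centred on olfactory and vomeronasal receptor genes, the subunit medians were 0.11 and 0.13 and the median of all genes was 0.05. The large subunit then had 2 genes called lower and 9 higher, beside 7.86% and 22.2% of all genes. Mrpl40, Mrps36, Mrps24, Mrpl20 and Mrpl42 among others lost their calls. With each array centred on the median of all genes the subunit medians were -0.18 and -0.16, and the median of all genes was -0.24. The large subunit then had 12 genes called lower and 3 higher, beside 42.9% and 14.1% of all genes.

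The members stood between the gene sets that they serve and resemble, and so did the median of all genes, at -0.10. Of all genes, 23.6% were called lower and 18.2% higher. The cytosolic ribosomal proteins, which translate nuclear messages, had 58 of 78 genes called higher and 0 lower, with a median change of 0.48. Where only probe sets marked unique and lying on the gene's own chromosome were used, a choice made after seeing the data, 26 of these genes were left, with 15 called higher and 1 lower. The respiratory chain and ATP synthase subunits, some of whose partners the mitochondrial ribosome makes, had 66 of 83 genes called lower and 0 higher, with a median of -0.55. Centring on the receptor genes left 38 called lower and 2 higher. Complex I had 32 of 38 called lower, complex II 4 of 4, complex III 8 of 8, complex IV 11 of 18 and the ATP synthase 11 of 15. The lowest was the complex IV subunit Cox7a1, a muscle-type form, at -4.15. The mitoribosomal values lie between, with medians of -0.04 and -0.03 by subunit, near the median of all genes. No test between the sets was made, and all come from the same 8 samples.

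**Figure D4:**
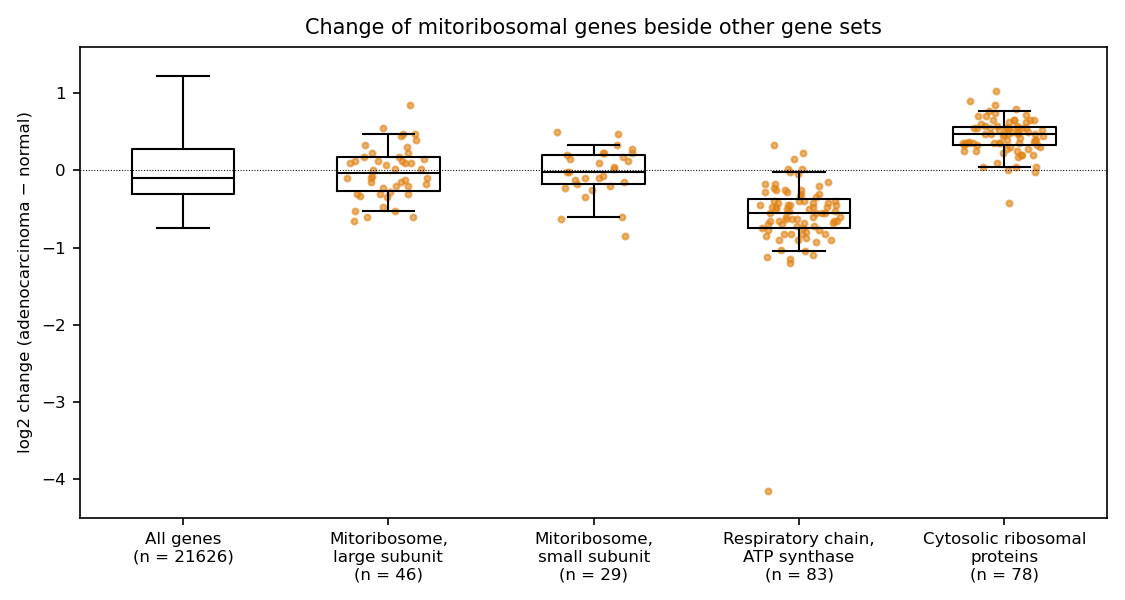
Log2 change (adenocarcinoma minus normal mucosa) of all genes, of the mitochondrial ribosomal genes by subunit, of respiratory chain and ATP synthase genes and of cytosolic ribosomal protein genes. Boxes give the median and quartiles, whiskers the range from the 5th to the 95th percentile and points the single genes of each set; the medians are -0.10, -0.04, -0.03, -0.55 and 0.48 from left to right.

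Other genes of mitochondrial translation went both ways too, and their counts also moved with the scaling. Apart from the regulators, the lists below had 14.3% to 28.6% of their genes called, beside 41.8% of all genes. Of all genes, 23.6% were called lower and 18.2% higher. These shares were 42.9% and 14.1% with median centring, 15% and 18.1% with cyclic loess, and 7.86% and 22.2% with receptor centring. Of 7 mitoribosomal proteins whose symbols do not start with Mrpl or Mrps, 1 was called lower and 0 higher. This was Mrp63, a large subunit protein, at -0.40 ± 0.106 (limma adjusted p = 0.0169). The counts became 2 lower without adenocarcinoma 4 and 1 higher without adenocarcinoma 3. With arrays centred on the receptor genes Mrp63 was not called (-0.25, limma adjusted p = 0.158), and 0 were called lower and 1 higher. Of 22 aminoacyl-tRNA synthetase and amidotransferase genes, which charge the transfer RNAs, 4 were called lower and 1 higher, and 7 lower with median centring or cyclic loess. Vars2, the mitochondrial valyl-tRNA synthetase, read 10.3, 10.1, 9.9 and 9.5 in the adenocarcinomas and 10.8, 11.0, 11.0 and 11.2 in the normal samples. All adenocarcinomas were lower, by -1.05 ± 0.169 (limma adjusted p = 0.00157). Pet112l, a subunit of the amidotransferase that completes glutaminyl-tRNA, stood at -0.73 (limma adjusted p = 0.00379). Kars, which serves both the cytosol and mitochondria, stood at 0.68 (limma adjusted p = 0.0111).

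Of 14 translation factors, 3 were called lower and 1 higher. Median centring gave 5 lower and 0 higher, and receptor centring 1 lower and 1 higher. Gfm2, which recycles ribosomes, stood at -0.65, and Taco1, which in human cells activates translation of a cytochrome c oxidase subunit, at -0.63 (limma adjusted p of 0.0353 and 0.00723). Oxa1l, the insertase that receives new chains at the inner membrane, stood at 0.35 (limma adjusted p = 0.0185). Gfm2's call was lost without adenocarcinoma 4 or any 1 normal sample, and Oxa1l's without normal sample 3 or 4. Of 22 assembly and ribosomal RNA modification genes, 3 were called lower and 3 higher. Median centring gave 9 lower and 2 higher, and receptor centring 0 lower and 5 higher. Gtpbp10, a GTPase of large subunit assembly, read 10.2, 9.8, 9.4 and 9.8 against 9.0, 9.2, 8.6 and 8.9. The adenocarcinomas were all higher, by 0.88 ± 0.181 (limma adjusted p = 0.00571). The pseudouridine synthase gene Trub2 stood at 0.38, Mterfd1 at -0.53 and the methyltransferase gene Rnmtl1 at -0.40 (limma adjusted p of 0.00652, 0.00792 and 0.0169). Receptor centring ended the calls of Mterfd1 (limma adjusted p = 0.0558) and Rnmtl1 (0.172), and array weights also ended that of Rnmtl1.

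Of 16 genes for replication, transcription and RNA processing of mitochondrial DNA, 2 were called lower and 2 higher. Median centring gave 4 lower and 2 higher, and receptor centring 0 lower and 4 higher. Ssbp1, the single-strand binding protein, stood at 0.78 and the topoisomerase Top1mt at 0.73 (limma adjusted p of 0.00134 and 0.00156). With only unique probe sets on the gene's own chromosome, Ssbp1's change was 0.23 and not called (limma adjusted p = 0.368). Hsd17b10, a subunit of mitochondrial RNase P, stood at -0.58 and the polymerase subunit Polg2 at -0.33 (limma adjusted p of 0.00618 and 0.0369). Polg2's call was lost without any 1 sample but adenocarcinoma 3 and normal sample 1. The count of 2 higher became 4 without adenocarcinoma 3.

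Of 10 regulators of nuclear genes for mitochondria, 3 were called lower and 5 higher, which is 80% beside 41.8% of all genes. The orphan nuclear receptor Esrrg, also on the parietal cell marker list, read 7.1, 7.3, 7.3 and 7.4 in the adenocarcinomas and 11.9, 12, 11.9 and 11.7 in the normal samples. The groups were far apart, with a change of -4.60 ± 0.100 (limma adjusted p = 4.342e-08). The coactivator Ppargc1b stood at -1.43 (limma adjusted p = 8.523e-05). Gabpb1, a partner of the ETS factor Gabpa in nuclear respiratory factor 2, read 9.7, 10.1, 9.6 and 9.9 against 8.9, 8.9, 8.8 and 8.9. It was higher in all adenocarcinomas, by 0.95 ± 0.116 (limma adjusted p = 0.000349). Gabpa itself stood at -0.03 and was not called (limma adjusted p = 0.876). Myc stood at 0.93 (limma adjusted p = 0.00792) and Nrf1, nuclear respiratory factor 1, at 0.30 (limma adjusted p = 0.0276). Yy1 and Pprc1 stood at 0.48 (limma adjusted p of 0.0338 and 0.0365) and Esrra at -0.50 (limma adjusted p = 0.009998). Ppargc1a at -0.98 was not called (limma adjusted p = 0.288), with adenocarcinomas 1 to 4 at 7.1, 7.8, 10.8 and 9.9. Gabpa, Nrf1, Yy1, Pprc1, Esrra and Ppargc1a are named to complete the list, after their values were seen. The count of 5 higher became 2 with median centring, 3 with cyclic loess, 2 without adenocarcinoma 2, normal sample 1 or normal sample 3, and 3 without adenocarcinoma 1, adenocarcinoma 4 or normal sample 4. Nrf1's call was among those lost, without adenocarcinoma 2 or 4 or normal sample 1 or 3. The calls of Yy1 and Pprc1 were each lost for 6 of the single samples left out.

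The promoters of the members were read for motifs of these regulators, because the regulators moved in opposite directions. RefSeq's promoter table, on GRCm38.p6, held 72 promoters of 66 members, and a window of 280 bases was searched, 250 before and 30 after the start, on both strands. The ETS motif CCGGAAG was in 21 of the 72 (29.2%), beside 11.1% of 21263 promoters of all genes. The NRF1 core GCGCANGCG, where N is any base, was in 15 (20.8%) beside 8.23%. The YY1 motif AAGATGGCG was in 4 (5.56%) beside 1.32%, and the receptor motif TCAAGGTCA in 0 beside 0.329%. The members' windows had a median CpG ratio, observed over expected, of 0.813 beside 0.554. By call, the ETS motif was in 2 of 11 windows of members called lower and in 4 of 6 of members called higher. The NRF1 core was in 2 of 11 and 2 of 6, the YY1 motif in 0 and 1, and the receptor motif in 0 of either. These counts are small, and differences between them were not tested. The other 2 of the 8 members called higher, Mrpl13 and Mrpl19, had no window in the table. A match is a run of letters, not a measured binding site, and none of the motif matches in these members overlapped one of another kind. The windows of the lowest and highest called member of each subunit are shown, with motif letters in capitals and the build's plus or minus strand given.
Mrpl24 (chr3:87919294-87919573, plus strand): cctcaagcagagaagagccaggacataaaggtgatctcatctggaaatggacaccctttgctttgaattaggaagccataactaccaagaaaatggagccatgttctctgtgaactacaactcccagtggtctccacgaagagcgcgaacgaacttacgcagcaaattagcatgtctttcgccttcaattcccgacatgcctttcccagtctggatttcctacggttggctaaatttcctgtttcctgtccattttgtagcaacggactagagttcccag
Mrpl45 (chr11:97315466-97315745, plus strand): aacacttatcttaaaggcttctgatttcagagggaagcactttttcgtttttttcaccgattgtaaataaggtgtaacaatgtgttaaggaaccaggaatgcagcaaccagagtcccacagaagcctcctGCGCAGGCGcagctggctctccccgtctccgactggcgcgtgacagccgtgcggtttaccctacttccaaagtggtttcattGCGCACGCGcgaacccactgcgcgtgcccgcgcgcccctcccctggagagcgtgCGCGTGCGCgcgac
Mrps21 (chr3:95871485-95871764, minus strand): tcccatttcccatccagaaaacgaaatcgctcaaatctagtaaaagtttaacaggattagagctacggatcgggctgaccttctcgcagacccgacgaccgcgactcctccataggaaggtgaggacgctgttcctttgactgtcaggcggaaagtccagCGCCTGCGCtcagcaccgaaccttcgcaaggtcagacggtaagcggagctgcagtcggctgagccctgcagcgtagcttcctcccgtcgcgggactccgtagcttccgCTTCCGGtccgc
Mrps26 (chr2:130563507-130563786, plus strand): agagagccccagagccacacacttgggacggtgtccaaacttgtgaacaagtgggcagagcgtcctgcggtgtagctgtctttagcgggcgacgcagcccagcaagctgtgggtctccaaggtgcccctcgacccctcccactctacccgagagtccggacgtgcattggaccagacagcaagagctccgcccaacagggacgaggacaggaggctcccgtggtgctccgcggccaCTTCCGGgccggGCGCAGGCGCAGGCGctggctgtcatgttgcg
Mrpl24, the large subunit gene with the lowest change, has none of the 4 motifs in its window. Mrpl45, with the highest change, has 3 NRF1 matches. Mrps21 has 1 NRF1 and 1 ETS match, and Mrps26 has 1 ETS match and 2 overlapping NRF1 matches. Mrps21 and Mrps26 changed in opposite directions, and a link of motif and direction was not tested. Mrpl46 and Mrps11 were the only members whose probe sets lay within 100000 bases of each other. They are on opposite strands of chromosome 7, with 220 bases between the deposited probe set positions. Their promoter windows, at 78783060 to 78783339 and 78782881 to 78783160 on GRCm38.p6, overlap. Their changes were 0.10 and 0.18, and neither was called.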

How the data were processed

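Total RNA of 4 adenocarcinomas and 4 normal mucosa samples was measured on 1 array each. The authors deposited log2 values, normalized by RMA per the submitters' processing notes, and all values carry 1 decimal. For the deposited probe set positions, the genome build was not given in the sources used here. Replicates were numbered as in the labels.

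Probe sets of the main category with 1 symbol (24975) were reduced to 21626 genes, keeping for each gene the brightest probe set on average. The fit was limma 3.58.1 in R 4.3.3 with empirical Bayes moderation, without a block, with p-values adjusted over all genes by Benjamini-Hochberg and a threshold of 0.05. Tables and figures used Python 3.11.15, pandas 2.3.3 and matplotlib 3.10.9. The fit was tested on simulated data with genes changed by known amounts: it called 22 of 67 genes changed by 0.5 log2 units, 54 of 67 changed by 1 and 61 of 66 changed by 2. Among the genes left unchanged, 13 were called. Far fewer genes were changed there than the 41.8% called in the real data, which makes the adjusted threshold stricter. These shares therefore do not give the recovery of the real fit. The number of arrays limits the precision.

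The members and lists were chosen with earlier results of these data known. Named members are, per subunit, the 6 lowest and 6 highest changes, the one nearest 0, the brightest and dimmest, called members against the majority of calls and those whose probe sets differ in sign. Mrps30, Mrps18a and Mrps36 were added for their placement, and from each pathway list the 2 called genes of largest change in each direction. The remaining regulators were named after their values were seen. Of the members, 67 had a probe set marked unique and 8 one that can cross-hybridise, and for 5 the probe set lay off the gene's chromosome. Only chromosomes were compared there and in the check with unique probe sets, not positions within them. The probe sets of Mrps10 and Mrps5 lay on the gene's chromosome but far from its promoter window. For Mrps5 this was 20156672 to 20157727 of chromosome 2, with the window at 127587176 to 127587455. Promoters came from RefSeq (GRCm38.p6). Alternatives covered scaling, an offset, a filter on dim genes, the probe sets of a gene, moderation, array weights, a replicate block, single samples left out, the threshold, rounding and the subunit assignment. The labels name no pairs, and deviations of samples with the same number correlated at -0.18 to 0.16, so no pairing was used.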

Additional observations from a re-analysis of the deposited data

Results flagged for a closer look

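In the 92 groups of 4 samples behind the named genes, 9 held a sample set apart from the other 3 by Dixon's criterion at the 95% level. Chance gives such a sample in about 1 of 20 groups, and values rounded to 1 decimal make it more frequent where 3 samples tie. Among the members, Mrpl14 read 10.3 in normal sample 3, Mrpl3 read 10.8 in adenocarcinoma 2 and Mrps10 read 10 in normal sample 1, each in a group whose whole range was 0.1. Mrpl13 read 10.1 in adenocarcinoma 2, above 3 samples at 9.9. Among the other genes of mitochondrial translation, Mrp63 read 9.6 in adenocarcinoma 3, below 3 samples at 9.9, and Trub2 read 9.3 in normal sample 2, above 3 at 9.2. Top1mt read 9.7 in adenocarcinoma 2, above 3 at 9.4, and Gabpb1 read 8.8 in normal sample 3, below 3 at 8.9. Ppargc1b read 9.4 in adenocarcinoma 2, above the other adenocarcinomas at 8.8 to 8.9. The causes were not tested.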

How the results depend on the processing

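Of the 4 counts of called members, large subunit genes called higher and small subunit genes called lower moved beyond 1.5 times with few settings and the others with more, and no member or list gene named here changed sign past the threshold. Large subunit genes called lower numbered 8, and 5 with trend and robust moderation, 12 with arrays centred on the median of all genes, 2 with arrays centred on the receptor genes, 3 at an adjusted p under 0.01, and 3 to 10 with single samples left out. Large subunit genes called higher numbered 6, and 3 with median centring, 9 with receptor centring, 2 at 0.01, and 4 to 7 with single samples left out. Small subunit genes called lower numbered 3, and 6 with median centring, 1 with receptor centring, 1 at 0.01, and 2 to 4 with single samples left out. Small subunit genes called higher numbered 2, and 4 with array weights, 1 with cyclic loess, 0 with median centring, 4 with receptor centring, 1 with noise added to undo the rounding, 0 at 0.01, 1 with subunits by structure, and 0 to 3 with single samples left out. The median change was -0.04 for the large subunit and -0.03 for the small, -0.18 and -0.16 with median centring, and 0.11 and 0.13 with receptor centring. With single samples left out the medians ran from -0.0667 to 0.0083 and from -0.0667 to 0.0417. Over all genes the scalings gave a median of -0.10, -0.24 with median centring, -0.01 with cyclic loess and 0.05 with receptor centring. In that order they called 23.6%, 42.9%, 15% and 7.86% lower, and 18.2%, 14.1%, 18.1% and 22.2% higher. At an adjusted p under 0.01, 8.84% of all genes were called lower and 11% higher. With single samples left out, 27.5% to 41.9% of all genes were called. The cause of these moves was not tested. Of the 19 called members, 6 kept their call under every other setting tried at 0.05, and 4 of these also at 0.01. With only unique probe sets on the gene's chromosome, chosen after seeing the data, 18 kept it, and Mrps36, which has no such probe set, was not measured.

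Samples with the same replicate number were checked for pairing. The correlations of their deviations were -0.18, 0.09, 0.16 and 0.04. Adenocarcinomas 2 and 3 correlated best with the normal sample of their own number, and 1 and 4 did not. The labels name no pairs, and such a check cannot exclude a link such as a shared batch. With the replicate block, 5 large subunit genes were called lower and 1 small subunit gene higher, 14 of the 19 called members kept their call, and 37.4% of all genes were called in place of 41.8%.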
